A study of Homo sapiens with 6 samples.

Results

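YAP and TAZ, the TEAD transcription factors they bind, and a handful of their target genes were followed in liver metastases of SW480, a long-established human cell line from a colorectal cancer. The genes were taken as a fixed list of 10 symbols (YAP1, WWTR1, TEAD1, TEAD3, TEAD4, CCN1, CCN2, ANKRD1, AMOTL2 and AJUBA). Each symbol matched 1 row among the 58884 genes of the count table. The cells carried a guide RNA against ITPR3 (sgITPR3) or a control guide (sgCtrl), and 3 libraries were made of each group. The cells of each group were given to NSG mice by way of the portal circulation, NSG being immunodeficient mice in which human tumours can grow. After digestion of the livers, tumour cells were enriched by a density gradient and by removal of mouse cells, and tags from the 3' ends of polyadenylated RNA were sequenced. The sources used here give neither the guide sequence, nor whether a line was 1 clone or a pool, nor whether each library came from its own animal. The p-values therefore measure the spread between these libraries, which may be technical.

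YAP1 and TAZ, the product of WWTR1, are coactivators without a DNA-binding domain of their own. The Hippo kinases phosphorylate them and hold them in the cytoplasm, and when that brake is off they enter the nucleus and switch on genes through TEAD factors. In the gut this pathway is known for its part in regeneration and in colorectal tumours, and several of its targets feed back to restrain YAP itself.

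Totals were 19140055 to 23943797 counts in sgITPR3 libraries and 19255242 to 20049117 in sgCtrl libraries, so a floor of 3 counts was 0.121 to 0.161 CPM, the unit of level throughout (counts scaled to library size). ITPR3, the calcium channel gene targeted by the guide, stood at 39.4, 41.0 and 46.2 CPM in sgITPR3 libraries, against 108, 93.9 and 94.2 CPM in sgCtrl libraries. Since 3' tags need not cover the edited site, this checks the labels only in part. Loss of the protein had been checked by Western blot, per the labels. Epithelial markers of the tumour cells (6 genes) summed to 1986 to 2043 CPM in sgITPR3 and 2407 to 2796 CPM in sgCtrl libraries. Of these, EPCAM, KRT8 and KRT19 were lower in sgITPR3, and KRT18, the largest, and CDH1 did not pass. CDX2 went the other way, with 63.3, 62.4 and 53.6 CPM in sgITPR3 libraries, against 51.1, 42.8 and 47.6 CPM in sgCtrl libraries (edgeR adjusted p = 0.0115). The part of the difference in epithelial markers in the results for YAP1 and the TEAD genes was not tested. Hepatocyte markers (6 genes) summed to 154 to 292 CPM in sgITPR3 and 66.3 to 250.2 CPM in sgCtrl. ALB made up most of the sum in the sgITPR3 libraries and in sgCtrl replicate 2. In sgCtrl replicates 1 and 3 ALB, at 33.8 and 21.6 CPM, stood below SERPINA1. Among the 6 markers SERPINA1 went the other way, with 16.4, 12.4 and 12.9 CPM in sgITPR3 libraries, against 45.3, 45.8 and 38.9 CPM in sgCtrl libraries (edgeR adjusted p = 1.51e-07). Fibroblast and stellate cell markers (6 genes, LUM at 0 in every library) summed to 8.61 to 10.7 CPM in sgITPR3 and 6.03 to 6.51 CPM in sgCtrl, mostly COL1A1. Endothelial markers (6 genes) summed to at most 0.861 CPM in any library and macrophage markers (6 genes) to at most 2.26 CPM.

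Of the 10 genes, all of which could be tested, CCN2, ANKRD1 and AMOTL2 were higher in sgITPR3 and YAP1 and TEAD3 were lower, by edgeR's quasi-likelihood test with adjustment over all 15804 genes tested. WWTR1, TEAD1, TEAD4, CCN1 and AJUBA did not pass. That is 3 higher and 2 lower, where 11.6% of all tested genes were called higher and 11.9% lower (23.5% in all). The median log2 fold change of the 10 genes was 0.026, against 0.00086 over all genes tested, and its median size was 0.27 against 0.21. The groups did not overlap for 7 of the 10 genes, as for 39.3% of all tested genes (19.6% with sgITPR3 higher and 19.7% with it lower). Among these 10 genes, the called coactivator and factor genes were lower and the called target genes higher. Other signature targets of YAP and TAZ, given below, went both ways, with 7 lower and 3 higher of 16 tested. The 10 genes mix 2 calls that held in all 13 alternative settings (CCN2 and ANKRD1) with 3 that did not (YAP1, TEAD3 and AMOTL2).

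**Figure D1:**
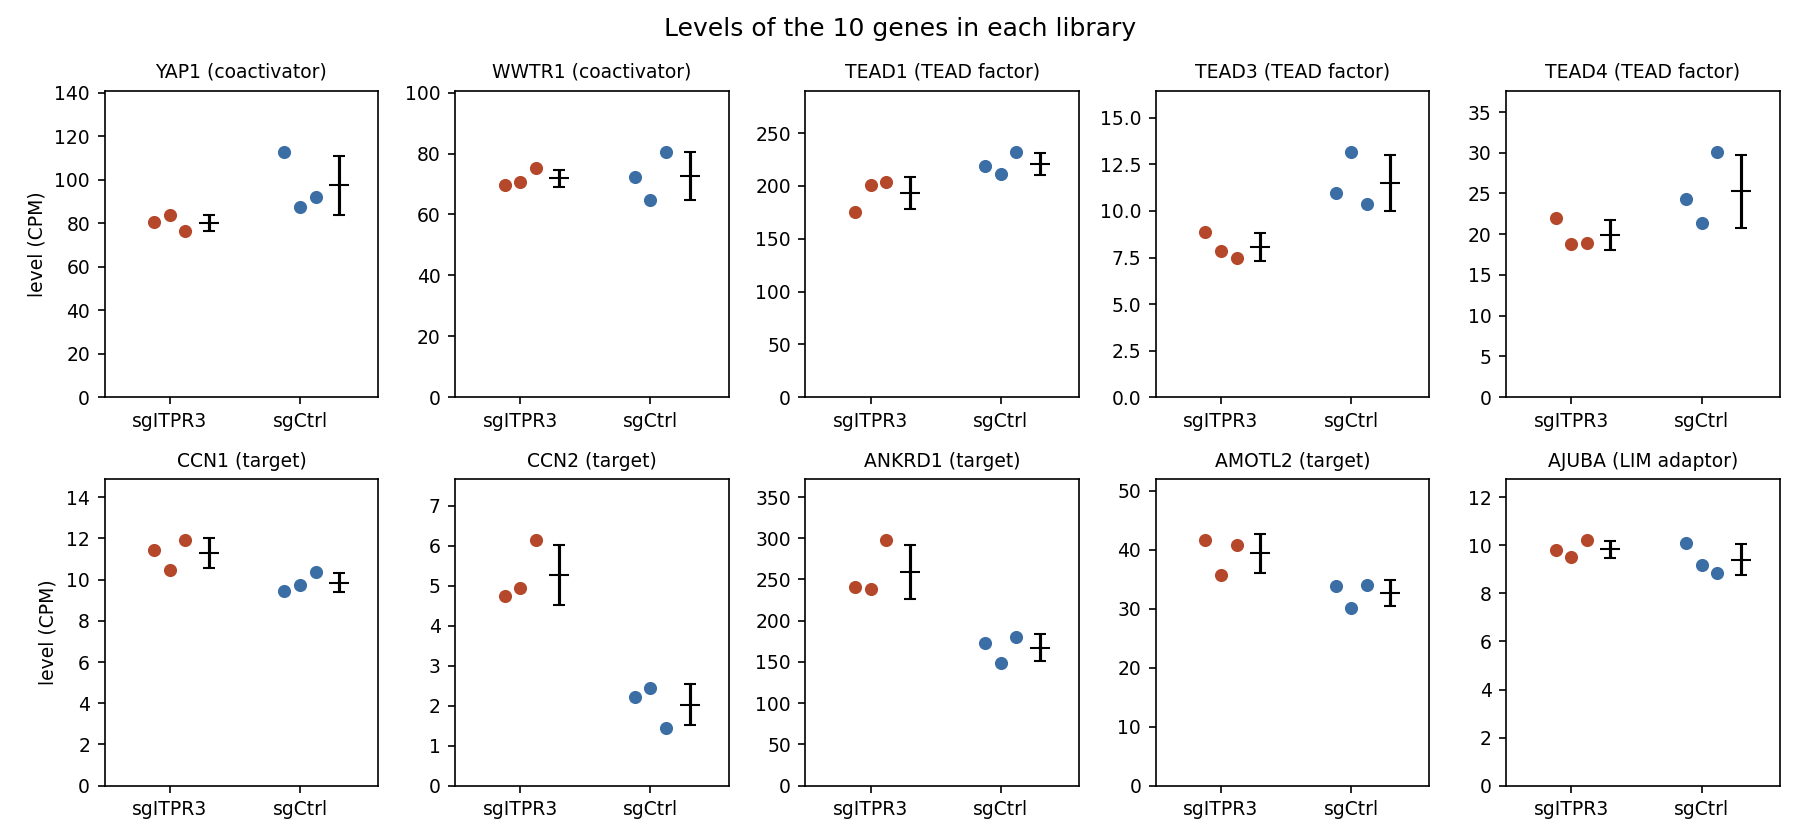
Level of each of the 10 genes in CPM (y axis, from 0) in the 3 sgITPR3 libraries (left, red) and the 3 sgCtrl libraries (right, blue). Points are libraries, and the black mark beside them is the mean with its SD. The groups stand clearly apart for CCN2 and ANKRD1, and overlap for WWTR1, TEAD4 and AJUBA.

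The coactivators were considered first. YAP1 (ENSG00000137693, chromosome 11, 102110461 to 102233423, plus strand, GRCh38) had 80.3, 83.5 and 76.4 CPM in sgITPR3 libraries, against 113, 87.4 and 91.9 CPM in sgCtrl libraries. The sgCtrl libraries were spread more widely, with replicate 1 the highest, and the lowest of them stood only just above the highest sgITPR3 library. YAP1 was 1.21-fold lower in sgITPR3 (log2 fold change -0.28 with an SE of 0.089, edgeR adjusted p = 0.0345). The call ended when sgCtrl replicate 1 was left out, at a log2 fold change of -0.17 (edgeR adjusted p = 0.142). It ended too without any 1 of the 3 sgITPR3 libraries (0.0639 to 0.112) and with the liver transcript ALB as a covariate (0.292).

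WWTR1 (ENSG00000018408, chromosome 3, 149517235 to 149736714, minus strand) had 69.7, 70.6 and 75.2 CPM in sgITPR3 libraries, against 72.3, 64.8 and 80.6 CPM in sgCtrl libraries. The sgITPR3 values lay inside the sgCtrl range. Its log2 fold change was -0.01 (with an SE of 0.082, 95% interval -0.19 to 0.16, edgeR adjusted p = 0.918). The ratio of YAP1 to WWTR1 counts, which needs no library scaling, was 1.15, 1.18 and 1.02 in sgITPR3 libraries, against 1.56, 1.35 and 1.14 in sgCtrl libraries. The difference in log2 ratio was -0.26 (exact two-sided permutation test, p = 0.3, adjusted over 3 ratios p = 0.45), and the groups overlapped. YAP1 and WWTR1 tags together came to 152 ± 2.06 CPM in sgITPR3 and 170 ± 16.6 CPM in sgCtrl (SD, n = 3 each). Antisense and intronic genes annotated inside these loci were given at most 11 counts in any library. With the strand setting not known, reads of such genes that were counted to YAP1 or WWTR1 cannot be told apart.

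All TEAD genes had lower means in sgITPR3. TEAD factors bind DNA but activate little without YAP or TAZ. TEAD1 (ENSG00000187079, chromosome 11, 12674591 to 12944483, plus strand) had 175, 201 and 203 CPM in sgITPR3 libraries, against 218, 211 and 232 CPM in sgCtrl libraries. All sgITPR3 values of TEAD1 were under all sgCtrl values, but the test was not passed (log2 fold change -0.19 with an SE of 0.074, 95% interval -0.35 to -0.03, edgeR adjusted p = 0.0738). TEAD1 passed without sgCtrl replicate 2 (-0.23, edgeR adjusted p = 0.0422). TEAD3 (ENSG00000007866, chromosome 6, 35473597 to 35497076, minus strand) had 8.90, 7.85 and 7.47 CPM in sgITPR3 libraries, against 11.0, 13.2 and 10.4 CPM in sgCtrl libraries. It fell 1.42-fold without overlap (log2 fold change -0.51 with an SE of 0.14, edgeR adjusted p = 0.0154). Its call ended without sgITPR3 replicate 2, sgITPR3 replicate 3 or sgCtrl replicate 2 (edgeR adjusted p = 0.0582, 0.0548 and 0.0558).

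TEAD4 (ENSG00000197905, chromosome 12, 2959330 to 3040673, plus strand) had 22.0, 18.9 and 18.9 CPM in sgITPR3 libraries, against 24.4, 21.3 and 30.1 CPM in sgCtrl libraries. The highest sgITPR3 library lay above the lowest sgCtrl library, replicate 2. The log2 fold change of TEAD4 was -0.34 (SE 0.12, 95% interval -0.60 to -0.08, edgeR adjusted p = 0.0580). Without sgCtrl replicate 2 it was -0.45 and passed (edgeR adjusted p = 0.00785). With ALB as a covariate it was -0.146 (edgeR adjusted p = 0.596). TEAD2, the remaining gene of the family, is not one of the 10. It had 52.7, 48.4 and 57.1 CPM in sgITPR3 libraries, against 66.5, 71.9 and 63.8 CPM in sgCtrl libraries, and fell 1.28-fold (log2 fold change -0.36 with an SE of 0.080, edgeR adjusted p = 0.00523), a call that held in all 13 alternative settings.

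Tags of the 4 TEAD genes summed to 259, 276 and 287 CPM in sgITPR3 libraries, against 320.3, 318 and 336 CPM in sgCtrl libraries. The sums did not overlap between groups. Of these tags TEAD1 held 70.5% ± 2.55 in sgITPR3 and 67.9% ± 1.28 in sgCtrl, and TEAD2 19.3% ± 1.51 and 20.8% ± 1.84 (SD, n = 3 each). TEAD4 held 7.31% ± 1.04 in sgITPR3 and 7.76% ± 1.12 in sgCtrl, and TEAD3 2.96% ± 0.426 and 3.55% ± 0.546. The shares of TEAD1 to TEAD4 therefore differed by less than 3 percentage points between groups. For TEAD3, at 2.96% and 3.55% of the tags, that bound says little. The sum averaged 274 ± 13.9 CPM in sgITPR3 and 325 ± 10.2 CPM in sgCtrl (SD, n = 3 each). A 3' tag stands for a transcript end, so these shares are not divided by transcript length, and they take tags of each gene to be captured equally well. The log2 ratio of TEAD4 to TEAD1 counts differed by -0.14 (exact two-sided permutation test, p = 0.5, adjusted over 3 ratios p = 0.5).

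**Figure D2:**
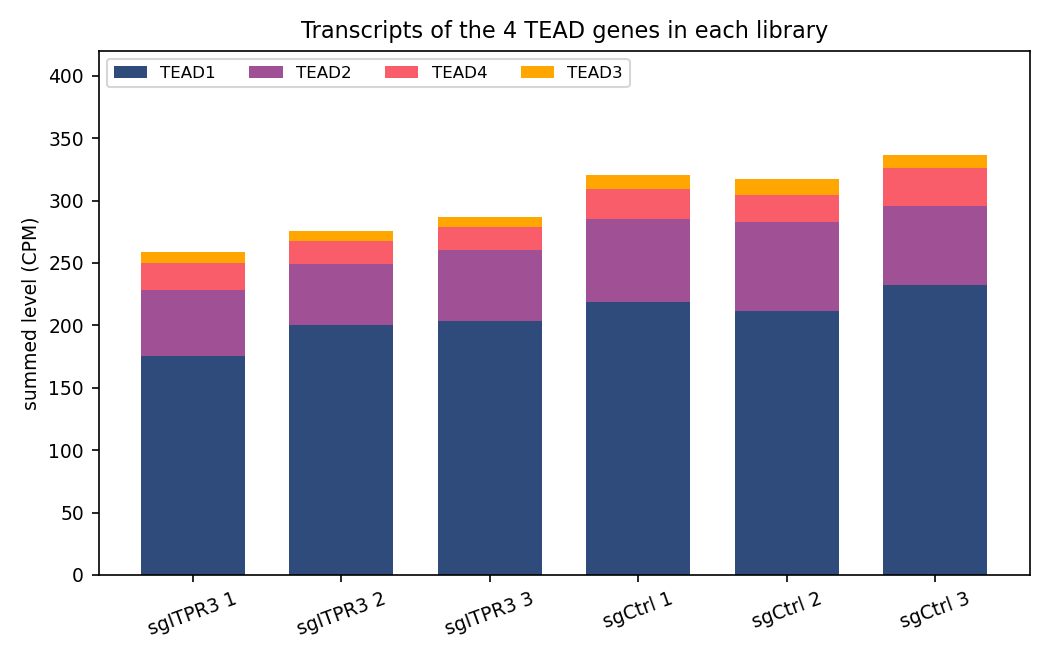
Stacked levels of TEAD1, TEAD2, TEAD4 and TEAD3 in CPM (y axis) in each of the 3 sgITPR3 libraries (left) and 3 sgCtrl libraries (right). Every sgITPR3 bar, up to 287 CPM, ends below every sgCtrl bar, from 318 CPM, and TEAD1 makes up the larger part of each.

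Before the target genes, DNA ahead of start sites of the 10 genes is shown where it matched the TEAD core motif. RefSeq windows on GRCh38.p14 covered 7 of the 10 genes, in 10 windows of 250 bases before a start. CCN1, TEAD1 and TEAD4 had no window and were not searched. CCN2 is printed in full, since it carries 3 copies of GGAATG, the TEAD core motif, marked in capitals and read on the strand of the gene (chr6:131951373-131951622, minus strand).
CCN2: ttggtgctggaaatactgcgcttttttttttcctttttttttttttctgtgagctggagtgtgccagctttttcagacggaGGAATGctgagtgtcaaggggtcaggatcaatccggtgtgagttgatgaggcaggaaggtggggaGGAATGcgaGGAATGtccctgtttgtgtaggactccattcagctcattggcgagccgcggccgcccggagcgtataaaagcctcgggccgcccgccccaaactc
For the other genes with a match, the site is shown with 10 bases on either side, 5′ to 3′ on the strand of the gene, again with the motif in capitals. ANKRD1 has a far and a near site (chr10:90921292-90921317 and chr10:90921200-90921225, minus strand), AMOTL2 has a site ahead of its second start in reverse orientation (chr3:134374501-134374526, minus strand), AJUBA one ahead of its second start (chr14:22976886-22976911, minus strand) and YAP1 one (chr11:102110275-102110300, plus strand).
ANKRD1 far: caccaccaaaGGAATGgccctctcac
ANKRD1 near: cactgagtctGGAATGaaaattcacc
AMOTL2: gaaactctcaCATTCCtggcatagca
AJUBA: gaagttggctGGAATGaagccaaagc
YAP1: ggagtgtgcaGGAATGtagcaacttg

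The motif GGAATG was searched on both strands, where its reverse reads CATTCC. It occurred in 5 of the 10 windows of these genes and in 11.9% of all 35116 RefSeq windows of the same length. At least 2 copies, as in ANKRD1, were found in 0.940% of all windows, and at least 3, as in CCN2, in 29 windows or 0.0826%. The CCN2 copies begin 169, 104 and 95 bases before the start, and those of ANKRD1 begin 220 and 128 bases before it. Starts here are those of RefSeq. The RefSeq start of ANKRD1 lies inside the gene as annotated for its position below, as do the second starts of AMOTL2 and AJUBA, so the near ANKRD1 site and the AMOTL2 and AJUBA sites fall within those genes. The AP-1-like pattern TGANTCA, with any base allowed at N, was found in 1 of the 10 windows, that of ANKRD1, and in 6.57% of all windows. The ANKRD1 match reads TGATTCA, with T at N, and overlaps none of the GGAATG copies. Matches were not split by the base at N. A match is a run of letters and does not show that a factor binds there. No chromatin or binding data were analysed here.

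**Figure D3:**
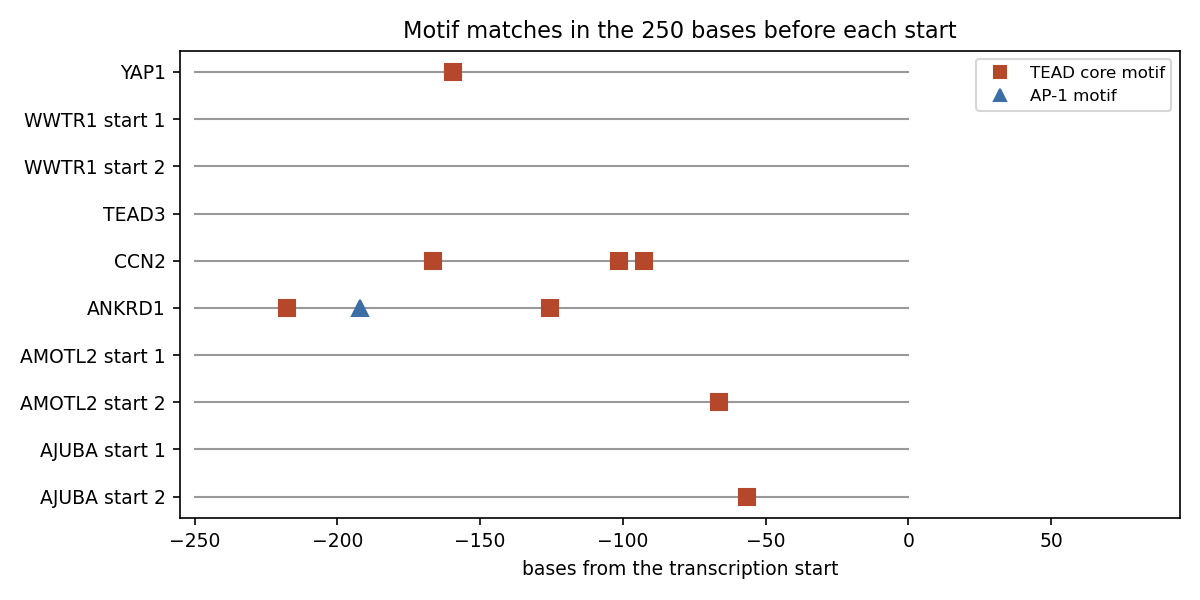
Positions of motif matches in bases from the transcription start (x axis) in the 10 windows of 250 bases, 1 line per start site. Squares are the TEAD core motif and the triangle is the AP-1 motif. CCN2 has 3 TEAD core matches and ANKRD1 2, and 5 windows have none of either motif.

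The secreted CCN proteins were the first targets examined. CCN2 (formerly CTGF) and CCN1 (formerly CYR61) encode matrix-associated proteins that bind integrins and growth factors, and both are widely used as readouts of YAP activity. CCN2 (ENSG00000118523, chromosome 6, 131948176 to 131951373, minus strand) had 4.75, 4.94 and 6.13 CPM in sgITPR3 libraries, against 2.21, 2.44 and 1.44 CPM in sgCtrl libraries. These rest on 110, 122 and 119 counts in sgITPR3 and 41, 49 and 27 counts in sgCtrl libraries. Each sgITPR3 library was above every sgCtrl library, and the level of CCN2 was low throughout. CCN2 rose 2.58-fold (log2 fold change 1.37 with an SE of 0.23, 95% interval 0.87 to 1.87, edgeR adjusted p = 7.26e-04), which ranked 659th in size among the 15804 genes. Across the 13 alternative settings its log2 fold change stayed between 1.17 and 1.52, and its highest edgeR adjusted p, 0.0114, came when ALB was a covariate (at 1.20).

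CCN1 (ENSG00000142871, chromosome 1, 85580761 to 85583962, plus strand) had 11.4, 10.5 and 11.9 CPM in sgITPR3 libraries, against 9.47, 9.74 and 10.4 CPM in sgCtrl libraries. The groups just failed to overlap, and CCN1 missed the threshold (log2 fold change 0.19 with an SE of 0.12, 95% interval of -0.07 to 0.45, edgeR adjusted p = 0.276). The upper bound for CCN1 was below the lower bound for CCN2. The ratio of CCN2 to CCN1 counts was 0.415, 0.471 and 0.515 in sgITPR3 libraries, against 0.233, 0.250 and 0.139 in sgCtrl libraries. All sgITPR3 ratios exceeded all sgCtrl ratios, and the difference in log2 ratio was 1.21 (exact two-sided permutation test, p = 0.1, the smallest that 3 against 3 libraries allows, adjusted over 3 ratios p = 0.3). CCN2 tags thus made up 31.8% ± 2.34 of the CCN1 and CCN2 tags in sgITPR3 and 17.0% ± 4.21 in sgCtrl (SD, n = 3 each).

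ANKRD1 encodes an ankyrin repeat protein of the nucleus and of muscle sarcomeres, and is a direct YAP target in many cell types. ANKRD1 (ENSG00000148677, chromosome 10, 90912096 to 90921276, minus strand) had 241, 239 and 297 CPM in sgITPR3 libraries, against 173, 149 and 180.2 CPM in sgCtrl libraries. The groups were well apart, with sgITPR3 replicate 3 the highest. ANKRD1 rose 1.55-fold (log2 fold change 0.63 with an SE of 0.093, edgeR adjusted p = 2.27e-04). In the alternative settings its log2 fold change was 0.52 without sgITPR3 replicate 3 and up to 0.82 when ALB was a covariate (edgeR adjusted p = 1.10e-05), and every one of them passed.

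AMOTL2 is both a target and a brake. It encodes an angiomotin-like protein that binds YAP and keeps it at cell junctions. AMOTL2 (ENSG00000114019, chromosome 3, 134355874 to 134375479, minus strand) had 41.6, 35.7 and 40.9 CPM in sgITPR3 libraries, against 33.9, 30.1 and 34.1 CPM in sgCtrl libraries. The groups did not overlap, though sgITPR3 replicate 2 lay close to the sgCtrl values. AMOTL2 rose 1.20-fold (log2 fold change 0.27 with an SE of 0.089, edgeR adjusted p = 0.0418). This call ended without sgITPR3 replicate 1 or 3 (edgeR adjusted p = 0.163 and 0.124), without each of the sgCtrl replicates 1 to 3 (0.0616, 0.122 and 0.0610) and with ALB as a covariate (0.0548).

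The other angiomotin genes rose more than AMOTL2. AMOT had 78.6, 81.3 and 78.6 CPM in sgITPR3 libraries, against 51.0, 60.9 and 56.9 CPM in sgCtrl libraries, a 1.41-fold rise (log2 fold change 0.50 with an SE of 0.076, edgeR adjusted p = 2.96e-04). AMOTL1 was low, at 3.50, 3.03 and 2.63 CPM in sgITPR3 libraries, against 0.968, 1.19 and 0.961 CPM in sgCtrl libraries, and rose 2.92-fold (log2 fold change 1.55 with an SE of 0.27, edgeR adjusted p = 8.94e-04). Neither AMOT nor AMOTL1 overlapped between groups, and both calls held in all 13 alternative settings. The 3 angiomotin genes together came to 122 ± 1.87 CPM in sgITPR3 and 90.0 ± 3.55 CPM in sgCtrl (SD, n = 3 each).

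AJUBA encodes a LIM domain adaptor that binds LATS kinases and limits their action on YAP. AJUBA (ENSG00000129474, chromosome 14, 22971174 to 22982642, minus strand) had 9.80, 9.51 and 10.2 CPM in sgITPR3 libraries, against 10.1, 9.20 and 8.86 CPM in sgCtrl libraries. The groups overlapped and the difference was small (log2 fold change 0.07 with an SE of 0.12, 95% interval -0.20 to 0.33, edgeR adjusted p = 0.749). Its relatives WTIP and LIMD1, which share the LIM domains and also bind LATS, both rose. WTIP had 15.6, 13.6 and 14.9 CPM in sgITPR3 libraries, against 7.80, 7.11 and 7.21 CPM in sgCtrl libraries (log2 fold change 0.99 with an SE of 0.12, edgeR adjusted p = 4.16e-05). LIMD1 had 7.47, 7.85 and 6.91 CPM in sgITPR3 libraries, against 4.20, 4.23 and 5.93 CPM in sgCtrl libraries (log2 fold change 0.63 with an SE of 0.18, edgeR adjusted p = 0.0171). The LIMD1 call ended without sgITPR3 replicate 1 or 2 or sgCtrl replicate 1 (edgeR adjusted p = 0.0510 to 0.0719), and the WTIP call held in all 13 alternative settings.

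**Figure D4:**
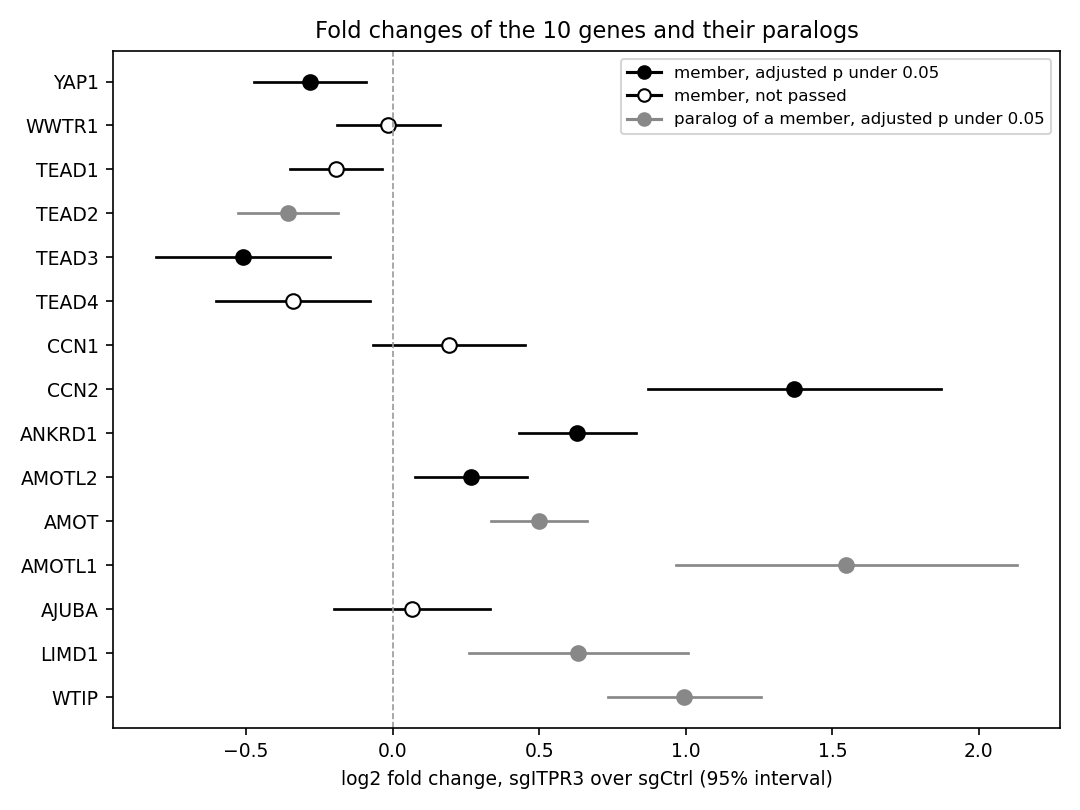
Log2 fold change, sgITPR3 over sgCtrl (x axis), with its 95% interval, for the 10 genes (black) and for other genes of the TEAD, angiomotin and Ajuba families (grey). Filled points passed at an adjusted p under 0.05. YAP1 and the TEAD genes lie left of 0, and CCN2, ANKRD1, the angiomotin genes, LIMD1 and WTIP lie right of it.

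Other genes of the pathway were read from lists, beginning with the kinases. Of the Hippo kinase core (17 genes, all tested), 2 genes were higher, 0 lower and 15 did not pass. That is 11.8% called, against 23.5% of all tested genes (11.6% higher and 11.9% lower). TNIK and TAOK1, kinases that act at the upstream end of the cascade, had 71.8 ± 3.34 and 263 ± 16.6 CPM in sgITPR3, against 55.3 ± 3.31 and 208 ± 3.46 CPM in sgCtrl (SD, n = 3 each). Their log2 fold changes were 0.38 and 0.34 (edgeR adjusted p = 0.00202 and 0.00232). The core kinase genes STK3, STK4, LATS1 and LATS2 had log2 fold changes from -0.06 to 0.15 and none passed. MAP4K4, with 0.21, and MAP4K5, with -0.21, did not pass either (edgeR adjusted p = 0.0686 and 0.0981).

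Among membrane and junction regulators, 4 of 16 tested genes were higher, 0 lower and 12 did not pass, with a median log2 fold change of 0.02. The 25% called, all higher, stands beside 23.5% of all tested genes (11.6% higher and 11.9% lower). Besides AMOT and AMOTL1 these were FAT1, an atypical cadherin upstream of the pathway, with 54.7 ± 3.17 CPM in sgITPR3 and 39.6 ± 3.77 CPM in sgCtrl, and LLGL1, a polarity protein gene, with 43.9 ± 3.03 and 30.6 ± 3.52 CPM (SD, n = 3 each). Their log2 fold changes were 0.47 and 0.52 (edgeR adjusted p = 0.00129 and 0.00126). Of 11 genes of STRIPAK, the phosphatase complex that turns the Hippo kinases off, 1 was lower, 0 higher and 10 did not pass, or 9.09% called against 23.5% of all tested genes. That gene was SLMAP, the subunit that binds the kinases, with a log2 fold change of -0.23 (edgeR adjusted p = 0.0319), and its call ended without sgITPR3 replicate 1 or 2, without sgCtrl replicate 1 and when ALB was a covariate (edgeR adjusted p = 0.0857 to 0.233). PPP2R1A and PPP2CA had log2 fold changes of -0.23 and -0.18 and did not pass (edgeR adjusted p = 0.0501 and 0.0511).

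TEAD also has partners that compete with YAP. In a list of these and of relatives of TEAD and AJUBA, 3 of 4 tested genes were higher (WTIP, LIMD1 and VGLL4), 1 lower (TEAD2) and 3 could not be tested. That is 100% called of only 4 genes, against 23.5% of all tested genes (11.6% higher and 11.9% lower). VGLL4, the one whose product displaces YAP from TEAD, had 91.9, 90.8 and 92.1 CPM in sgITPR3 libraries, against 77.1, 75.1 and 67.0 CPM in sgCtrl libraries. It rose without overlap (log2 fold change 0.33 with an SE of 0.071, edgeR adjusted p = 0.00443), and the call ended when ALB was a covariate (log2 fold change 0.27, edgeR adjusted p = 0.0637). VGLL1 and VGLL2 had no counts in any library, and VGLL3 had at most 3.

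Other genes of a published YAP and TAZ target signature were called in either direction. Of 16 tested genes of this list, 7 were lower, 3 higher and 6 did not pass, which is 62.5% called against 23.5% of all genes, with a median log2 fold change of -0.16. The list was written down with some of these falls already known, so its count is a description. NT5E, which encodes the ecto-enzyme CD73, had 8.12, 6.15 and 6.44 CPM in sgITPR3 libraries, against 113, 88.1 and 106 CPM in sgCtrl libraries (log2 fold change -3.89 with an SE of 0.12, edgeR adjusted p = 1.31e-10). IGFBP3, a secreted binding protein of insulin-like growth factors, had 77.5, 76.8 and 86.8 CPM in sgITPR3 libraries, against 197, 180.2 and 185 CPM in sgCtrl libraries (log2 fold change -1.22 with an SE of 0.073, edgeR adjusted p = 3.75e-08).

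MYOF, a membrane repair gene, had 41.8, 41.7 and 49.5 CPM in sgITPR3 libraries, against 94.1, 87.4 and 107 CPM in sgCtrl libraries (log2 fold change -1.12 with an SE of 0.092, edgeR adjusted p = 8.05e-07). F3, which encodes tissue factor, was low, at 2.25, 1.98 and 2.11 CPM in sgITPR3 libraries, against 3.76, 6.81 and 5.50 CPM in sgCtrl libraries (log2 fold change -1.34 with an SE of 0.24, edgeR adjusted p = 0.00101). These 4 genes fell without overlap and in all 13 alternative settings. CCDC80, ARHGEF17 and CRIM1 rose, with log2 fold changes of 0.54, 0.96 and 0.35 (edgeR adjusted p = 0.00171, 0.00286 and 0.0140), and the CRIM1 call ended without sgITPR3 replicate 1 (0.0929) and when ALB was a covariate (0.146). The signature genes PTPN14 and LATS2, feedback inhibitors that also stand in the lists of upstream regulators, had log2 fold changes of 0.25 and 0.15 and did not pass. Of 13 signature genes with a RefSeq window, 5 had a GGAATG match in at least 1 window. These were 1 of 6 that fell, 0 of 1 that rose, 3 of 4 that did not pass and 1 of 2 not tested. The 11.9% of all RefSeq windows with a match counts windows, not genes, and AXL had 2 windows.

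The CCN family beyond CCN1 and CCN2 was scarce. CCN4, known as a Wnt target, had 0 counts in each sgITPR3 library, against 40, 41 and 40 counts in sgCtrl libraries. Against a floor of 3 counts per library it was at least 15.6-fold lower in sgITPR3 (edgeR adjusted p = 7.95e-06). CCN6 had 3.64 ± 1.09 CPM in sgITPR3 and 5.04 ± 0.303 CPM in sgCtrl (SD, n = 3 each), and CCN3 stayed under 1 CPM in every library. Neither CCN6 nor CCN3 passed (edgeR adjusted p = 0.136 and 0.608).

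**Figure D5:**
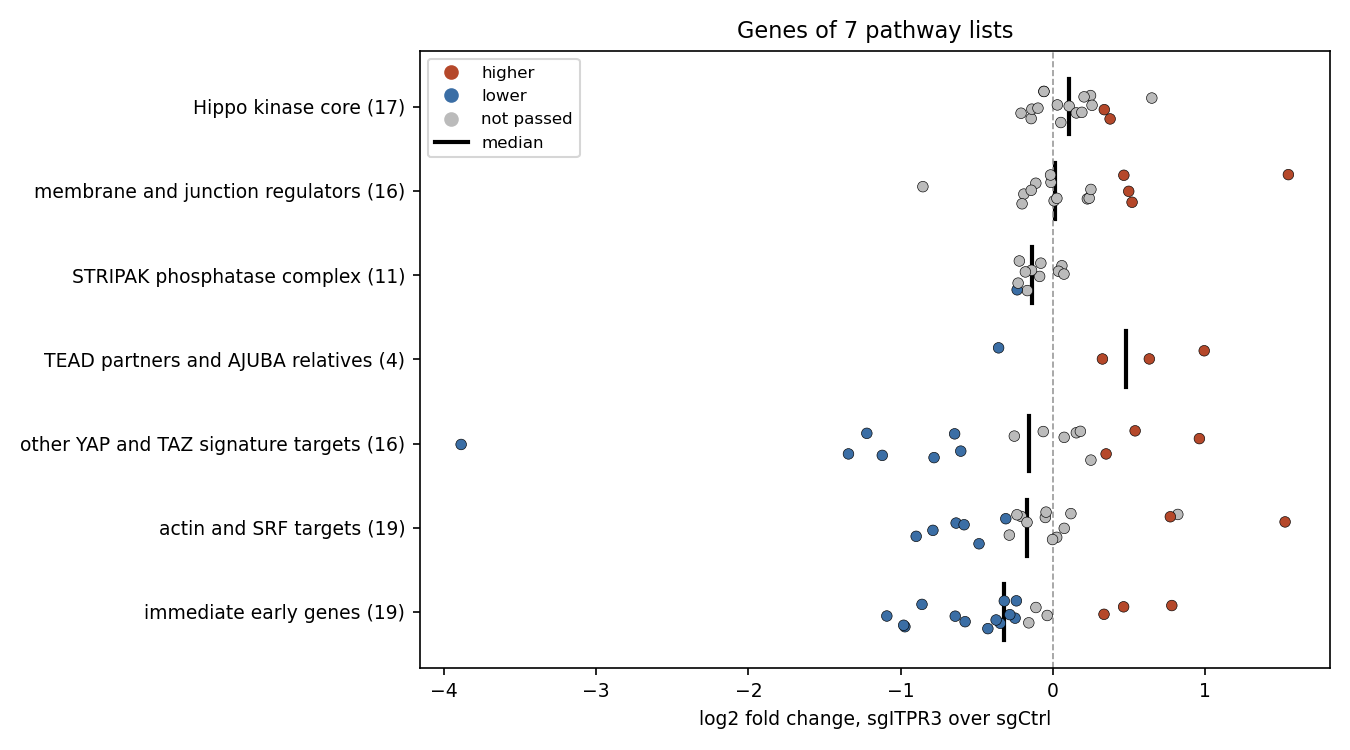
Log2 fold change, sgITPR3 over sgCtrl (x axis), of each tested gene in 7 lists (y axis, number of genes in brackets). Red points were higher, blue points lower and grey points did not pass at an adjusted p under 0.05, and black bars are medians. Genes of the kinase core lie between -0.21 for MAP4K5 and 0.65 for MAP4K1, and the signature targets spread from -3.89 for NT5E to 0.96 for ARHGEF17.

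CCN1 and CCN2 also answer to serum response factor (SRF) and its actin-sensing partners, and CCN1 is quickly induced by growth factors, as FOS is, so both programmes were set beside them. Of 19 tested actin and SRF target genes, 2 were higher, 6 lower and 11 did not pass, with a median log2 fold change of -0.17 and 42.1% called, against 23.5% of all tested genes (11.6% higher and 11.9% lower). MYL9, a myosin light chain gene, had 39.0 ± 3.52 CPM in sgITPR3 and 13.5 ± 0.876 CPM in sgCtrl, and TPM2, a tropomyosin gene, had 53.2 ± 7.66 and 31.1 ± 3.24 CPM (SD, n = 3 each). MYL9 and TPM2 rose by 1.53 and 0.77 on the log2 scale (edgeR adjusted p = 7.82e-08 and 1.25e-04). FHL2, a LIM cofactor, and VCL, which encodes the adhesion protein vinculin, fell by 0.90 and 0.58 on the log2 scale (edgeR adjusted p = 2.65e-06 and 2.13e-05). SRF itself and its cofactor genes MRTFA and MRTFB did not pass (log2 fold changes -0.21, -0.29 and 0.03).

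Of 19 tested immediate early genes, 13 were lower, 3 higher (NR4A1, EGR2 and BTG2) and 3 did not pass, with a median log2 fold change of -0.32. That is 84.2% called, against 23.5% of all tested genes, of which 11.9% were lower. Of the 13 lower genes, FOSB and ZFP36 overlapped between groups (edgeR adjusted p = 0.0495 and 0.0218). The call ended without sgITPR3 replicate 2 for EGR2 and BTG2 (edgeR adjusted p = 0.0706 and 0.232), without sgITPR3 replicate 3, sgCtrl replicate 1 or sgCtrl replicate 3 for BTG2 (0.0601 to 0.118), and when ALB was a covariate for NR4A1, EGR2 and BTG2 (0.0812 to 0.166). KLF6, KLF2, FOSL1 and FOS fell by 1.09, 0.98, 0.97 and 0.58 on the log2 scale (edgeR adjusted p = 1.89e-06, 1.41e-05, 2.04e-05 and 3.24e-04). CCN2 and ANKRD1 were higher in the same libraries. In all groups the RNA came from dissociated tissue, in which fewer cells of a type and less RNA per cell cannot be told apart. The part of digestion and enrichment in the levels of the immediate early genes was not tested. COL1A1, the fibroblast and stellate marker with most counts, had 8.59, 8.01 and 6.86 CPM in sgITPR3 libraries, against 5.81, 5.52 and 5.50 CPM in sgCtrl libraries (log2 fold change 0.48, edgeR adjusted p = 0.0331, and 0.0573 to 0.214 in the 6 of 13 alternative settings that ended this call). The other markers of that list were too low to be tested. COL3A1 averaged 0.822 CPM in sgITPR3 and 0.346 CPM in sgCtrl, and COL1A2 0.443 and 0.277 CPM. PDGFRB averaged 0.239 and 0.0534 CPM, DCN 0.0818 and 0 CPM, and LUM had no counts. ALB had 232, 153 and 111 CPM in sgITPR3 libraries, against 33.8, 170 and 21.6 CPM in sgCtrl libraries. With ALB as a covariate CCN2 and ANKRD1 passed as before, at the values given above. ALB is 1 transcript, and the part of liver cells or of COL1A1-expressing cells in the CCN2 and ANKRD1 rises was not tested.

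Genes with the most similar profile over the 6 libraries were looked up by Pearson's r of log2 CPM among 10631 genes averaging 5 CPM or more. YAP1 was closest to PLK4, UQCR10 and CYC1 (r = 0.994, 0.992 and 0.992), which like it were highest in sgCtrl replicate 1. CCN1 was closest to CDKN2B and TACC3 (r = 0.997 and 0.991). CCN2 was closest to ZSWIM7, UBE2D3 and KMT2C (r = 0.995, 0.994 and 0.993). With only 6 libraries, r was over 0.95 for 101 genes with YAP1, 40 with CCN1 and 207 with CCN2, so these likenesses single out little and are given as descriptions.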

How the data were processed

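The deposited table holds raw counts per gene in 6 libraries, 3 sgITPR3 and 3 sgCtrl, that the authors made with STAR 2.6.0a and featureCounts 1.6.3 on GRCh38, per the submitters' processing notes, which also name DESeq2. The sources used here do not give the annotation, the strand setting or the handling of mouse and multiply mapped reads, and mouse reads that align to human genes would be counted. Gene IDs were matched to symbols (58472 from a name table, 404 from GENCODE, 8 without). From the counts, CPM (TMM scaling) and edgeR 4.0.16 quasi-likelihood tests were computed in R 4.3.3, after a filter at a minimum count of 10 that kept 15804 genes, with no covariate and Benjamini-Hochberg adjustment at 0.05. The script was tested on simulated data. SEs come from the F statistic, and intervals are 95%. They and the 3-count floor cover counting error and the spread between libraries as fitted, not unseen batches. The 13 alternatives were RLE scaling, 2 other low-count filters, a replicate block, DESeq2 1.42.0, limma-voom (limma 3.58.1), ALB as a covariate and leaving out each library. The 10 genes, the 8 pathway lists and the 5 marker lists were chosen with earlier results of these data known. Named genes are the 10, ITPR3, up to 4 genes of lowest p per list, genes called against a list's majority, and the 3 genes most like YAP1, CCN1 and CCN2. STK3, STK4, LATS1, LATS2, PTPN14, SRF, MRTFA, MRTFB, MAP4K1 and the markers were named for their roles after their values were seen. Some genes that this rule names are not reported here.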

Additional observations from a re-analysis of the deposited data

How the results depend on the processing

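No called value among the genes recomputed changed sign, CCN3 having 12 settings instead of 13. Among values not called, the sign turned with ALB as a covariate for WWTR1 (to 0.15), CCN3 (-0.21), STK4 (0.07), MRTFA (0.24) and MRTFB (-0.20), and also in 2 leave-outs for WWTR1 and 3 for MRTFB. Of the 10 genes, CCN2 and ANKRD1 passed and WWTR1, CCN1 and AJUBA missed the threshold in all 13. With ALB as a covariate 1012 genes were called higher and 993 lower, against 1835 and 1882 without it. Among genes of the pathway lists 15 were then higher and 20 lower, against 17 and 29. The genes called lower among the 10 then numbered 1 instead of 2, YAP1 had a log2 fold change of -0.19 (edgeR adjusted p = 0.292) and AMOTL2 of 0.36 (0.0548). Leaving out 1 library gave 1135 to 2121 genes higher and 1196 to 2140 lower, the lowest without sgITPR3 replicate 2, and 2 to 3 of the 10 higher and 0 to 3 lower, with 0 lower without sgITPR3 replicate 2 or 3. Log2 fold changes then ran from -0.36 to -0.17 for YAP1, -0.23 to -0.13 for TEAD1, -0.59 to -0.40 for TEAD3, -0.45 to -0.20 for TEAD4 and 0.21 to 0.33 for AMOTL2. With no low-count filter TEAD4 passed at -0.35 (edgeR adjusted p = 0.0144). Replicate numbers are shared between the groups, but the deviations of same-numbered libraries correlated at -0.0511, 0.0384 and 0.119, so the numbers were not taken to pair libraries, and 3 of 6 libraries correlated best with their own number. With a replicate block 3877 genes were called (3591 of them among the 3717), 4 of the 10 were lower, and TEAD1 and TEAD4 passed at -0.19 and -0.33 (edgeR adjusted p = 0.0480 and 0.0485). With 27 to 122 counts a library, depth limits CCN2 most among the 10. Protein, localisation and phosphorylation of YAP were not measured.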
